A study of Mus musculus with 2 samples.

Results

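The tubulin isotype genes examined here were 10 genes coding for alpha-tubulins (Tuba1a, Tuba1b, Tuba1c, Tuba4a and Tuba8) and beta-tubulins (Tubb1, Tubb2a, Tubb2b, Tubb4b and Tubb5). They were taken by name, and every non-control probe whose transcript accession belongs to one of them was kept, which gave 12 of the 39429 probes on the array and 10 of the 20659 genes that could be named. The set was chosen with the differences between these arrays already known, so all values below are descriptions. SoNar is a fluorescent protein that reports the balance of NADH and NAD+ in the cytosol. Cells of C57BL/6 (SoNar-high) and C57BL (SoNar-low) mouse embryos at E13.5, described as blood cells of the fetal liver, were sorted by their SoNar fluorescence ratio at a pair of excitation wavelengths, and total RNA of each sorted fraction was labelled with Cy3. There were 2 arrays, 1 per group, so differences carry no replicate error, no test was possible and no p-value is given. The labels give neither the number of embryos nor how the sensor was brought into the cells.

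Microtubules are polymers of dimers of 1 alpha- and 1 beta-tubulin, and mammals carry several genes for each chain that code for closely similar proteins. The isotypes are used unevenly across tissues. Tuba1b, Tuba1c, Tubb4b and Tubb5 are made in most cells and supply the spindle of dividing cells, Tuba1a, Tubb2a and Tubb2b are prominent in the developing nervous system, Tubb1 and Tuba4a belong to the marginal microtubule band of platelets, and Tuba8 is best known from muscle and testis. Cells also regulate tubulin messages through the amount of free dimer, because TTC5 recognises nascent tubulin chains and leads to decay of their mRNAs.

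The alpha1 genes lie in 1 cluster, and the sequence before their start sites is shown because Tuba1a was lower in the SoNar-high array by more than the spot error, whereas neither probe of Tuba1b and not the probe of Tuba1c was. The sequences are from RefSeq (GRCm38.p6), read 5′ to 3′ along each gene's strand over the 250 bases before its annotated start, and capitals mark matches to the motifs searched.
Tuba1a, chr15:98953502-98953751, minus strand: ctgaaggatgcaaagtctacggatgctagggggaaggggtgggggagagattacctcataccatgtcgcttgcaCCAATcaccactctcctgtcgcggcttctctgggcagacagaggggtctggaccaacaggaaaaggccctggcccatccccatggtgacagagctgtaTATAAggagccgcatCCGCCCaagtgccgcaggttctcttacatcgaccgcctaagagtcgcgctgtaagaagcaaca
Tuba1b, chr15:98934391-98934640, minus strand: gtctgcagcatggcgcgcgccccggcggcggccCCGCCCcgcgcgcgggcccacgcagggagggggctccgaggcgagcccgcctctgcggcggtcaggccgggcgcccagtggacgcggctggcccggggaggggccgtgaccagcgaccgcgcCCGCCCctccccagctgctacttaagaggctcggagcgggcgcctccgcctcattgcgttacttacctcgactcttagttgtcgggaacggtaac
Tuba1c, chr15:99029641-99029890, plus strand: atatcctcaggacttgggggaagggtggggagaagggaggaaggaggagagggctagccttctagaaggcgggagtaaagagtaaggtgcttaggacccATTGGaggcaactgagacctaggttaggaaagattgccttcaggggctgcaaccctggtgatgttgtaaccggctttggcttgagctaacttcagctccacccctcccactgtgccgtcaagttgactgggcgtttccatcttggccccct
The motifs were the TATA box core TATAA, the CCAAT box CCAAT, the GC box GGGCGG, the GATA site AGATAA, the NF-E2 site and the cAMP response element TGACGTCA, each on both strands, and none of the matches shown overlaps another. Tuba1a had a TATA core at -78 to -74 from its start, a CCAAT box and a GC box. Tuba1b had GC boxes alone (2 of them), and Tuba1c had a single CCAAT box. The GC content of the window from 250 bases before to 50 after the start was 59.0% for Tuba1a, 72.7% for Tuba1b and 58.0% for Tuba1c. Of the 10 tubulin genes 9 matched the promoter table, all but Tubb2b. Over these 300-base windows the TATA core was found in 4 of 9 tubulin genes and in 24.9% of 32851 promoters, the CCAAT box in 5 of 9 and 37.4%, and the GC box in 6 of 9 and 35.7%. Some of these matches lay after the start, namely the TATA cores of Tuba4a (11 to 15) and Tubb4b (18 to 22). So did the CCAAT boxes of Tubb1 (26 to 30 and 29 to 33). The GC boxes of Tubb5 lay across the start (-2 to 3) and after it (25 to 30). The GATA site was found in 1 of 9 (Tubb5) and in 11.2% of promoters, the cAMP response element in 1 of 9 (Tubb2a) and in 1.79%, and the NF-E2 site in 0 of 9 and in 0.423%. A match describes these letters only.

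Of 43020 non-control spots, the scanner flagged 49.4% on SoNar-high and 42.4% on SoNar-low as well above background, and no spot was saturated. Each tubulin probe was printed once, and none of its spots was marked as an outlier. A probe was counted as measured when it was well above background on both arrays, which held for 15975 probes and for 11 of the 12 tubulin probes, covering 9 of the 10 genes. Each array was divided by the 75th percentile of its processed signals (186.5 units in SoNar-high and 222.2 units in SoNar-low), and a difference is the log2 value of SoNar-high less that of SoNar-low, positive where SoNar-high is higher. This scaling adds 0.25 to every log2 difference. Before it, 2 of the 11 tubulin probes were higher and 9 lower in SoNar-high, and after it 4 were higher and 7 lower. As a measure of error, the 213 measured probes with 10 spots each gave log2 differences that varied between spots with an SD of 0.15 at the median, and of 0.15 also among the 119 of them with a mean signal below 500 units. This median SD is what is called the spot error here. Single probes varied more, with a largest SD of 0.53, at a probe below 500 units. The scanner software's own error estimates, combined over both arrays, amounted to 0.20 to 0.30 for the 11 measured tubulin probes. Neither includes the spread between embryos, sorts or labelling reactions.

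**Figure D1:**
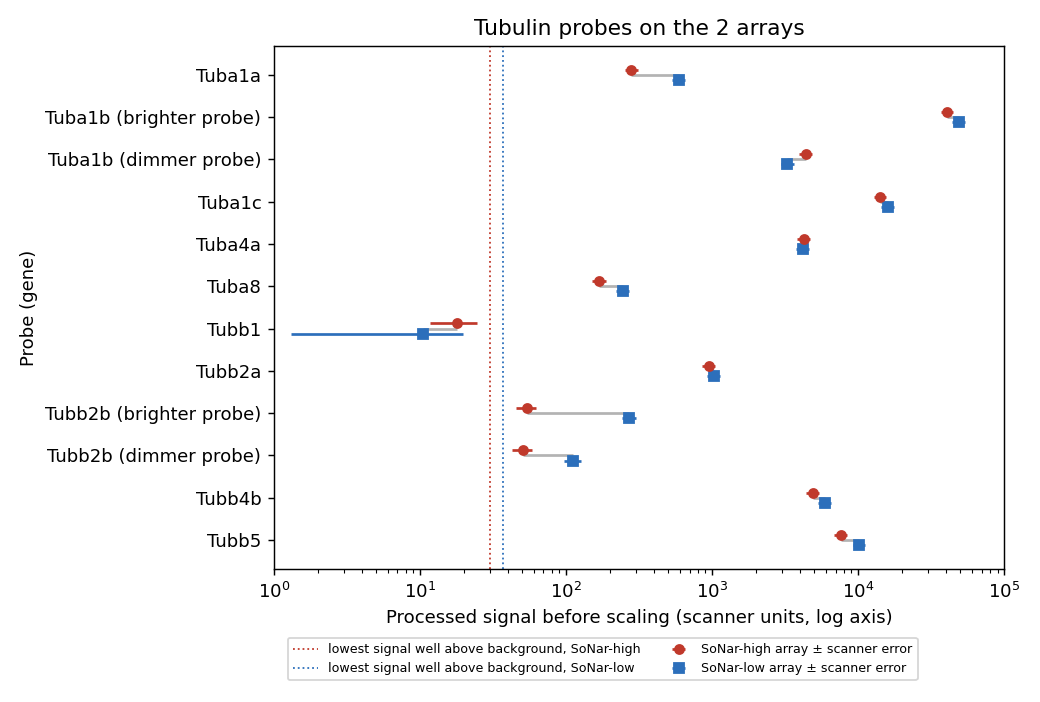
Processed signal of the 12 tubulin probes before scaling, in scanner units on a log axis, with 1 point for each array, bars for the scanner's error estimate and dotted lines at the lowest signal flagged well above background on each array (30.2 units in SoNar-high and 37.1 units in SoNar-low). Tubb1 lies below these lines on both arrays and both Tubb2b probes just above them on SoNar-high, and points compare within a probe, not between probes.

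Of the 11 measured tubulin probes, 1 was lower in SoNar-high by 2-fold or more and 0 were higher by as much. Among all 15975 measured probes 4.76% were lower by that factor and 4.76% higher, which is given as background only, since the genes were chosen on this difference. The median over the 11 probes was -0.03, against -0.08 over all measured probes. The tubulin differences spanned -2.09 to 0.67, and 4 of the 11 were within the median SD between spots. The probe past 2-fold belongs to Tubb2b. The next ones inside the limit were the other Tubb2b probe (-0.88) and Tuba1a (-0.82). In RNA pooled from sorted cells, a smaller share of the cells that carry a message and less message per cell cannot be told apart.

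Tubb2b, a beta-tubulin of newborn neurons whose human counterpart is mutated in cortical malformations, had the lowest values of the set. Its probe A_55_P2034864 had a processed signal of 53.6 ± 8.42 units (scanner error) in SoNar-high and 271 ± 28.3 units in SoNar-low, a log2 difference of -2.09 and so 4.24-fold lower in SoNar-high. This was the 12th lowest difference of 15975 measured probes. The gene's other probe, A_51_P514256, had 50.7 ± 8.09 units in SoNar-high and 111 ± 14.7 units in SoNar-low, a difference of -0.88. Both probes were lower in SoNar-high by more than the spot error, but the value of the brighter probe minus that of the dimmer was -1.21 (-1.21 to -1.06 across the alternative settings), so the size was not the same at both. After normexp background correction, which started from each spot's median brightness, the values were -1.33 and -0.27. The -0.27, of probe A_51_P514256, was beyond the spot error but inside that probe's combined scanner error of 0.30. Normexp was run with an offset of 50, close to the processed signals of both probes in SoNar-high. Both probes were under 100 units in SoNar-high, close to the 30.2 units at which the dimmest probe there was still well above background.

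Tubb2a, the beta-tubulin gene most like Tubb2b and its near neighbour in the genome, had a value near 0. Its probe A_51_P490023 had 954 ± 95.5 units in SoNar-high and 1033 ± 104 units in SoNar-low, which after scaling was a difference of 0.14 (0.06 to 0.35 across the alternative settings), inside the spot error. The difference of Tubb2b minus that of Tubb2a was -2.22 for the brighter Tubb2b probe (-2.53 to -1.39 across the alternative settings) and -1.02 for the dimmer one (-1.40 to -0.33). Transcripts of these genes are much alike, and since no probe sequences were used here, a probe that also binds the other gene's message would not be noticed.

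Tuba1a, the alpha-tubulin of migrating and differentiating neurons, had the lowest value among the alpha-tubulins. Its probe A_51_P169745 had 280 ± 28.8 units in SoNar-high and 589 ± 59.4 units in SoNar-low. The difference of -0.82 (1.76-fold lower in SoNar-high) lay between -0.82 and -0.64 under every alternative setting run, and stayed short of 2-fold. Tuba1a, Tubb2a and Tubb2b together make up 4 measured probes of the genes prominent in neurons, of which 3 were below 0 and 1 above, with a median of -0.85. Both Tubb2b probes are among the 3, so the median counts that gene more than the others. By gene, Tuba1a and Tubb2b were below 0 and Tubb2a was above.

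**Figure D2:**
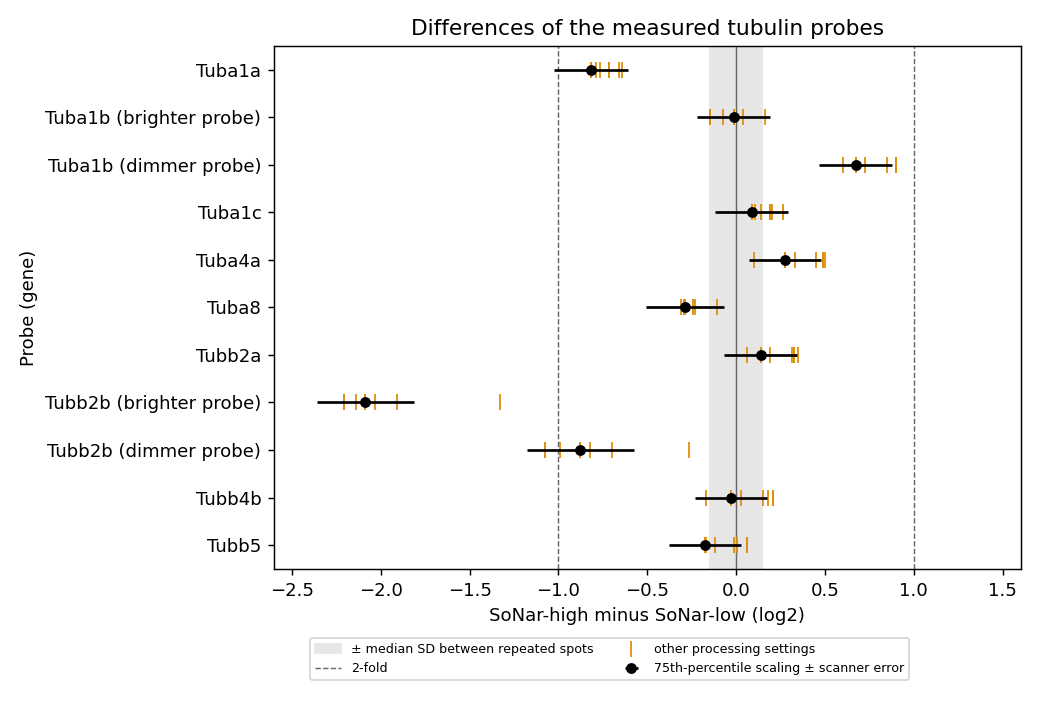
Log2 difference of SoNar-high minus SoNar-low for the 11 measured tubulin probes, where black points are the 75th-percentile-scaled values with the combined scanner error, orange ticks the same probe under the alternative settings, the grey band ± the median SD between repeated spots, and dashed lines 2-fold. The brighter Tubb2b probe is the single one past 2-fold (-2.09), and its tick furthest to the right is normexp (-1.33).

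The ubiquitous isotypes, which form the bulk of spindle microtubules, had differences between -0.17 and 0.09 at 4 of their 5 probes. Tuba1b had a probe at 40803 ± 4080 units in SoNar-high and 49071 ± 4907 units in SoNar-low with a difference of -0.01 after scaling. Its other probe, A_55_P2116496, had 4390 ± 439 units in SoNar-high and 3281 ± 328 units in SoNar-low and gave 0.67, the highest value among the tubulins (1.59-fold). The value of the brighter probe minus that of the dimmer was -0.69 (-1.05 to -0.68 across the settings), so the gene's probes disagree, the brighter inside the spot error and the dimmer outside it.

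Tuba1c had 14170 ± 1417 units in SoNar-high and 15895 ± 1590 units in SoNar-low, a difference of 0.09. Tubb4b had 4876 ± 487.7 units in SoNar-high and 5927 ± 593 units in SoNar-low, a difference of -0.03 whose sign changed with the setting (-0.17 to 0.21). Tubb5, the main beta-tubulin of dividing cells, had 7582 ± 758 units in SoNar-high and 10194 ± 1019 units in SoNar-low, a difference of -0.17, beyond the median spot SD but within the scanner error of 0.20, that reached 0.06 under other settings. Over the 5 probes of these 4 genes the median was -0.01, with 2 above 0 and 3 below. The difference of Tuba1a minus that of Tuba1c, 2 genes of the same cluster, was -0.91 (-0.91 to -0.86 across the settings), and that of Tuba1a minus the brighter Tuba1b probe was -0.80 (-0.80 to -0.57).

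Of the isotypes of platelets, Tubb1 gave no usable signal and Tuba4a was slightly higher in SoNar-high after scaling. Tubb1, the beta-tubulin of megakaryocytes and platelets, had 17.99 ± 6.37 units in SoNar-high and 10.5 ± 9.16 units in SoNar-low and was not well above background on either array, so no fold is given. Tuba4a had 4238 ± 424 units in SoNar-high and 4175 ± 418 units in SoNar-low, a difference of 0.27 (0.10 to 0.50 across the settings). As scaled here this was beyond both error measures, but after normexp (0.10) it was inside both. Most of the 0.27 is the 0.25 that the scaling adds, which neither error measure covers. The megakaryocyte and platelet markers beside them had 12 of 15 genes measured, with a median of 0.40, 10 above 0 and 2 below. Clec1b (1.86) and Thbs1 (1.00) were past 2-fold higher. Rab27b was past 2-fold lower (2.29-fold) by its brighter probe, with -0.27 by the other. Over all 10223 measured genes, 5.28% were past 2-fold higher and 4.44% past 2-fold lower. Summed signals, here and for the lists below, are of processed signal before scaling, which adds 0.25 to a log2 difference. They were 16212 units in SoNar-high and 11815 units in SoNar-low. Without Thbs1, the other 11 measured markers summed to 5115 units in SoNar-high and 5216 units in SoNar-low, nearly equal before scaling. Gp1bb and Gp5 were not well above background on either array, and Gp6 not on SoNar-low, whereas Pf4, a platelet chemokine, was measured at 1487 units in SoNar-high and 1694 units in SoNar-low. Whether these markers bear on the tubulin values was not tested. Tuba8 had 168 ± 18.4 units in SoNar-high and 245 ± 26.0 units in SoNar-low, a difference of -0.29 (-0.31 to -0.11). As scaled here this was beyond both error measures, but with the 75th percentile of detected probes (-0.11) it was inside both.

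**Figure D3:**
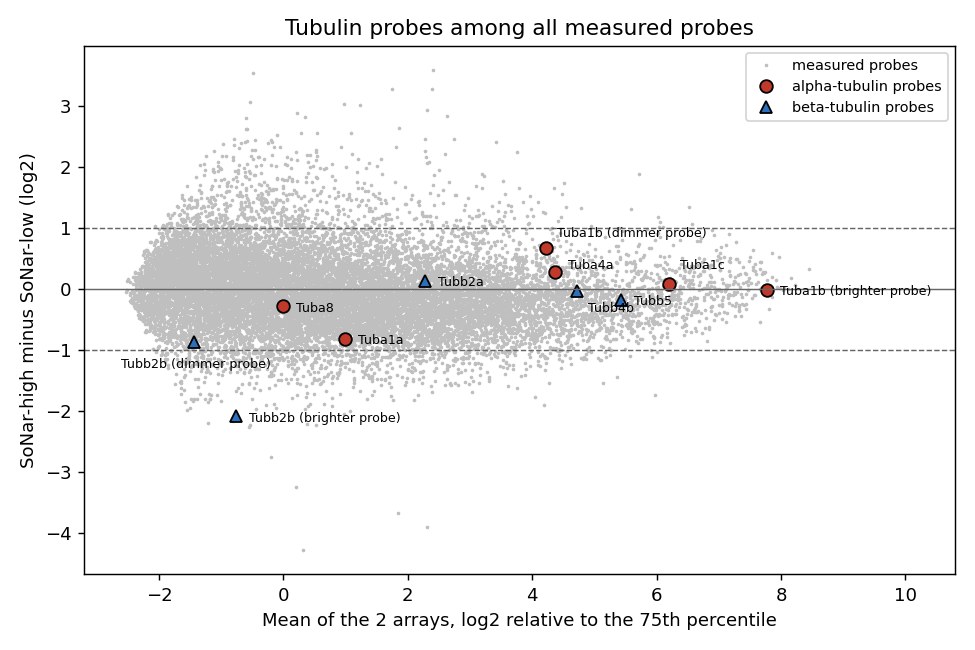
Log2 difference of SoNar-high minus SoNar-low against the mean of both arrays (log2 relative to the 75th percentile) for all 15975 measured probes in grey, with alpha-tubulin probes as red circles and beta-tubulin probes as blue triangles and dashed lines at 2-fold. Most tubulin probes lie near 0, and the brighter Tubb2b probe lies at the lower edge of the cloud at -2.09.

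The name of the neuronal-type isotypes was set against neuronal markers, and few of those were detected. Of 12 neuronal genes, 3 were measured on both arrays (median 0.34, summed signal 370 units in SoNar-high and 406 units in SoNar-low), Tubb3 was well above background in SoNar-high alone, and 8, among them Dcx, Stmn2, Map2 and Gap43, were not well above background on either array. The measured ones were Mapt at 0.60, Snap25 at 0.34 and Elavl4 at -0.09, all within 2-fold. Without Elavl4 the neuronal sum, also before scaling, was 155 units in SoNar-high and 133 units in SoNar-low. The unscaled sum was thus lower in SoNar-high with Elavl4 and higher without it. Scaling adds 0.25 to a log2 difference, so the unscaled direction need not hold after it. The lymphoid list had 10 of 13 measured genes (14 listed) at least 2-fold lower and a median of -1.53. Its summed signal was 5720 units in SoNar-high and 23373 units in SoNar-low. Stem and progenitor markers had 3 of 10 measured genes (12 listed) lower by 2-fold or more (Cd34, Angpt1 and Mycn) and 1 higher (Ly6a). Beside these lymphoid and stem cell counts, 4.44% of all 10223 measured genes were lower by that factor and 5.28% higher. Cd34 had -1.02 by its brighter probe and -0.39 by the other. The list had a median of -0.86 and summed signals of 10595 units in SoNar-high and 18567 units in SoNar-low. Mitotic and cycling genes had 10 of 11 measured, none past 2-fold, a median of -0.28 and summed signals of 24224 units in SoNar-high and 31299 units in SoNar-low. The part of neuronal, lymphoid, progenitor and cycling cells in the Tubb2b and Tuba1a values was not tested.

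Marker lists with higher values in SoNar-high included the erythroid list, with 10 of 14 measured genes (15 listed) past 2-fold higher and a median of 1.21. The share past 2-fold higher over all 10223 measured genes was 5.28%. The erythroid sums were 55966 units in SoNar-high and 33692 units in SoNar-low. Macrophage markers, with a median of 2.98 over 8 measured genes, summed to 18698 units in SoNar-high and 8515 units in SoNar-low. Markers of cells that are not blood were also detected, although the labels name blood cells. The median was 1.95 over 6 measured hepatoblast genes, 2.27 over 6 endothelial genes and 1.29 over 4 mesenchymal genes. Of these, 6 hepatoblast, 5 endothelial and 3 mesenchymal genes were above 0. The endothelial Egfl7 had -0.31, and the mesenchymal Pdgfrb had -1.39, past 2-fold lower in SoNar-high. The part of these cells in the tubulin values was not tested.

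**Figure D4:**
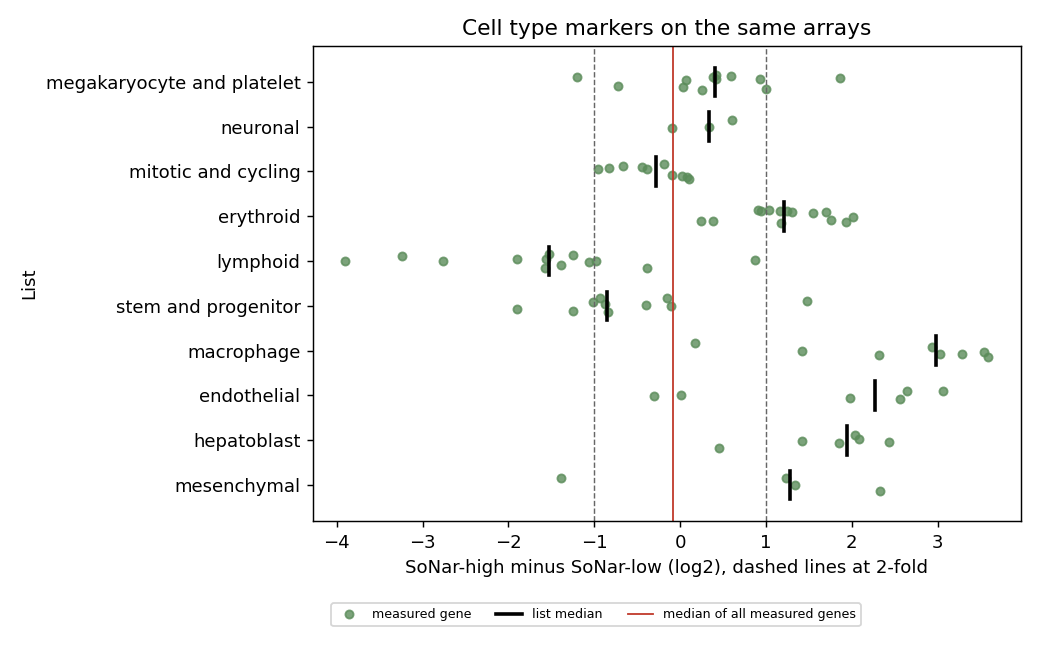
Log2 difference of SoNar-high minus SoNar-low of the measured genes of 10 marker lists, 1 point for each gene by its brightest measured probe, with the list median in black, the median of all 10223 measured genes in red (-0.08) and dashed lines at 2-fold. Lymphoid and stem cell markers lie mostly left of 0, erythroid and macrophage markers right of it, and just 3 neuronal genes could be shown.

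The genes that fold, nucleate, modify and bind tubulin were taken as 6 lists, 1 probe for each gene, with the measured probe of the highest mean signal. Among all 10223 measured genes, 5.28% were past 2-fold higher, 4.44% past 2-fold lower, and the median was -0.08. The 14 genes of the CCT chaperonin, which folds tubulin and actin, and of prefoldin, which hands them over, had the lowest median of these lists, -0.50, with 12 genes below 0 and 2 above. Of them 1 was at least 2-fold lower and 0 were higher. That gene was the prefoldin subunit Pfdn4, with 92.1 units in SoNar-high and 227 units in SoNar-low (-1.05). The chaperonin subunits Cct5 (-0.86), Cct8 (-0.81) and Cct2 (-0.31, the brightest) were within 2-fold. The list's median was negative under every alternative setting run, between -0.50 and -0.32, whereas Pfdn4 dropped out of the count when the scaling used detected probes or the minimum signal was 100.

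By the brightest measured probe of each gene, the other lists had no member past 2-fold in either direction as scaled here. Under some alternatives members passed it, up to 3 higher and 1 lower of microtubule binding and dynamics and 2 higher of the other tubulin genes with dim probes kept. The list of tubulin folding cofactors held the genes that assemble the alpha-beta dimer after the chaperonin, and also Ttc5, the mRNA decay factor described above (-0.46, and -0.57 by its other probe). The 8 genes of the list were split into 4 above and 4 below 0, with a median of -0.13 (0.05 with the 75th percentile of detected probes). Tbcel, which destabilises tubulin, had 0.84 by its brighter probe and 0.71 by the other, Tbca (cofactor A, which binds beta-tubulin) -0.56, with -0.10 by its other probe, and Tbcc (cofactor C) -0.51. Of 8 measured genes of the gamma-tubulin ring complex and its anchors, which nucleate microtubules, 3 were above and 5 below 0 (median -0.14, but 0.03 with the 75th percentile of detected probes). Among these, the small subunits Mzt2 and Mzt1 had -0.98 and -0.68 and Tubgcp6 had 0.35, and Nedd1, which targets the complex to centrosomes, was well above background in SoNar-low alone.

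The 6 measured genes of the other tubulin genes had a median of -0.04, which took either sign across the settings (-0.26 to 0.23), with 3 above and 3 below 0. They included Tubg1, the gamma-tubulin that nucleates microtubules (0.55), Tube1 (epsilon-tubulin of centrioles, -0.67) and the beta-tubulin Tubb6 (281 units in SoNar-high and 545 units in SoNar-low, -0.70). The neuronal Tubb3 had 47.4 units in SoNar-high and 45.6 units in SoNar-low, well above background in SoNar-high alone. Of 15 measured tubulin modifying enzymes 8 were above and 7 below 0 (median 0.14, negative under some alternatives and as low as -0.18). Ttll3, a glycylating ligase, had 0.83, the deacetylase Sirt2 0.82, the deacetylase Hdac6 -0.74 and the detyrosinating carboxypeptidase Vash1, the brightest, -0.17.

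Among 21 measured genes of microtubule binding and dynamics 9 were above and 12 below 0, with a median of -0.19 that turned to 0.02 after loess and 0.01 after quantile normalization. Clip1, which tracks growing plus ends, had 0.98 by its brighter probe and 0.46 by the other. Stmn1 (stathmin, which sequesters free dimers) had -0.87 by its brighter probe, with 9162 units in SoNar-high and 19972 units in SoNar-low, and 0.02 by the other. Katna1, the severing subunit of katanin, had -0.66. Map7d1, a microtubule-associated protein, had -0.03 by its brighter probe and 1.00, just past 2-fold, by the other. Another 3 genes of this list (Map1a, Clip2 and Dclk1) were well above background in SoNar-high alone and 10 on neither array. Some genes, such as Mapt and Dcx, stand on this list and on the neuronal one.

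**Figure D5:**
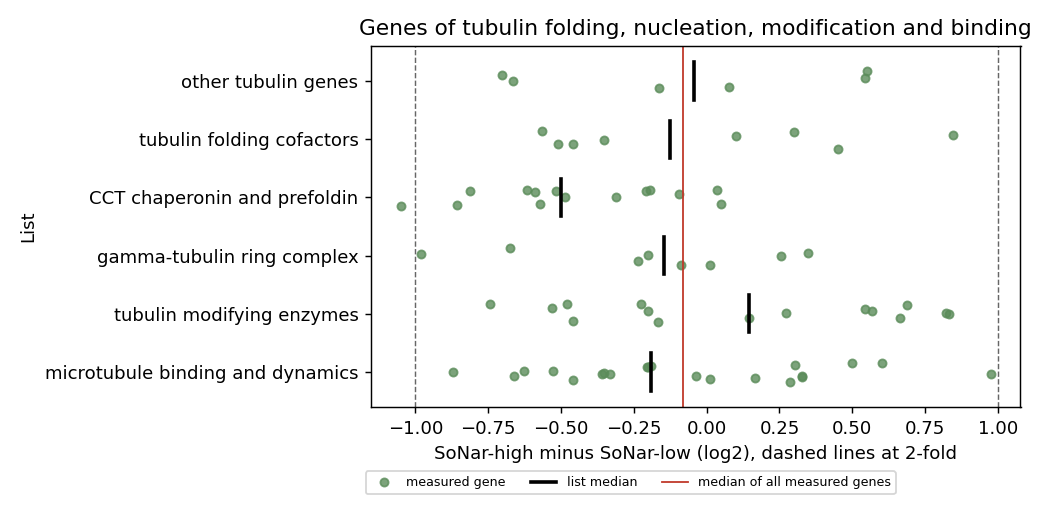
Log2 difference of SoNar-high minus SoNar-low of the measured genes of 6 lists around tubulin, 1 point for each gene, with list medians in black and the median of all measured genes (-0.08) in red. The chaperonin and prefoldin list has the lowest median (-0.50), and Pfdn4 alone passes the dashed 2-fold line by the probe shown for each gene.

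The sign of small differences depended on the scaling. When the 75th percentile was taken over probes detected on both arrays, the median of all measured probes moved by 0.18 to 0.09, and 7.41% of measured probes were past 2-fold higher and 2.47% past 2-fold lower, in place of 4.76% each way. Under that scaling the brighter Tuba1b probe had 0.16 and Tubb4b 0.15, whereas Tuba1a (-0.64), Tuba8 (-0.11) and Tubb2b (-1.91 and -0.70) were still lower in SoNar-high. Values of Tuba1a, Tuba8 and both Tubb2b probes were lower in SoNar-high under all the scalings and other settings run. Those of Tuba1c, Tuba4a, Tubb2a and the dimmer Tuba1b probe were higher under all of them. Yet Tuba1c and Tubb2a were inside the spot error as scaled here, and before scaling both were lower in SoNar-high.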

How the data were processed

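Spot intensities were deposited by the authors as Agilent Feature Extraction output of 2 one-colour Cy3 arrays, with background already subtracted in the processed signal. The file headers name version 11.0.1.1 and the submitters' processing notes 9.1. A deposited table also gives log2 values, with a normalization not given in the sources used here. The columns of that table share 1 median (4.8), and it served as an alternative.

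Control spots and outlier-flagged spots were left out, log2 processed intensity minus the array's 75th percentile was averaged over spots of a probe, and probes were named through their transcript accession in a RefSeq table (GRCm38.p6, used for names, since the array was designed on another build), which matched 27234 of 39429 probes to 1 gene. All 10 tubulin genes were named, each probe separately. In each list around tubulin, the brightest gene and the 3 largest differences of either sign were named. Other genes named there, such as those measured on 1 array, were chosen after their values were seen. The members and lists were chosen with earlier results of these data known. No test was possible with 1 array per group, and 2-fold was the limit for counting. Counting was tested on simulated data. The 11 alternatives were normexp (limma 3.58.1, offset 50, on the median spot signal), 3 other scalings and a loess fit (statsmodels 0.14.6, span 0.3), the deposited table, dim probes kept, a minimum signal of 100, outlier spots kept, medians over spots and a 3-fold limit. The number of arrays limits the precision, and neither error measure covers biological spread.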

Additional observations from a re-analysis of the deposited data

How the results depend on the processing

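No paired analysis was possible because each group has 1 array. Keeping outlier spots, taking medians over spots, keeping dim probes and a minimum signal cannot alter the value of a measured tubulin probe, which has 1 spot. Under the 6 settings that can, 32 of 66 differences of single tubulin probes moved by more than 0.15 (the median SD between repeated spots), and none that was past 2-fold changed sign. Quantile normalization and the deposited table are not separate checks, since their tubulin values differed by at most 0.0017. The brighter Tubb2b probe stayed at least 2-fold lower in SoNar-high under these 6 settings. Rescaling a whole array cannot change the value of 1 tubulin probe minus that of another. The ranges given for such pairs therefore reflect normexp, loess, quantile normalization and the deposited table alone. Quantile normalization and the deposited table each gave 2 tubulin probes at least 2-fold lower in place of 1, both of Tubb2b, and a minimum signal of 100 gave 0, because it removes both Tubb2b probes. With dim probes kept, 1 tubulin probe was at least 2-fold higher, namely Tubb1, which is not well above background on either array. The median over tubulin probes was 0.15 when detected probes alone set the 75th percentile. Over all probes, the percentages higher and lower past the limit were 2.18 and 2.86 after normexp, 7.41 and 2.47 with the 75th percentile of detected probes, 11.9 and 2.99 with dim probes kept, and 1.3 and 0.482 at a 3-fold limit, against 4.76 and 4.76 as reported. Signal over background limits the Tubb2b and Tubb1 values.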
